A study of Mus musculus with 8 samples.

Results

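Keratins are the intermediate filament proteins of epithelial cells. The keratin genes measured here are the 52 genes whose symbol begins with Krt and a digit, each from a probe set annotated with that symbol alone. They are 52 of 19938 genes with such a probe set, and each keratin has exactly 1, so no choice between probe sets was needed. There were 4 knockout and 4 control arrays of RNA from mouse lung cells at embryonic stage E18.5, selected with magnetic beads for the epithelial surface protein Epcam. In the knockout embryos the Hippo kinases Mst1 and Mst2, encoded by Stk4 and Stk3, had been conditionally deleted by Cre recombinase expressed from the Shh locus, which is active in epithelial progenitors while the lung forms. The labels call the other embryos Control and do not say which alleles, or whether Cre, they carried. Each array is called a biological replicate, and the labels do not say whether it stands for 1 animal, so p-values measure the spread between these samples. The question is how the keratin repertoire differs in lung epithelium in which both kinase genes were targeted.

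A keratin filament is built from pairs of 1 type I and 1 type II protein, and an unpaired keratin is usually degraded. Simple epithelia such as those of the lung use Krt8 and Krt7 with Krt18 and Krt19. The basal layer of stratified epithelia uses Krt5 with Krt14 or Krt15, the layers above it change to other pairs such as Krt4 with Krt13 in moist mucosa or Krt1 with Krt10 in skin, and hair and its inner root sheath use keratins of their own. In the Hippo pathway, Mst1 and Mst2 restrain the coactivators Yap and Taz, which act on genes largely through the DNA-binding Tead factors.

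Values are log2 expression. A difference is the knockout mean minus the control mean, given with limma's standard error (SE), for n = 4 arrays per group. A gene passed when its p, adjusted over all 19938 genes by the Benjamini-Hochberg method, was under 0.05. Levels of different probe sets cannot be set against each other, and the files give no detection call, so whether the lower values were at background is not known. In a bulk sample, fewer cells of a type and less RNA per cell cannot be told apart. Stk4 read 9.24 to 9.45 in knockout arrays and 9.59 to 9.84 in control arrays, from a probe set that may lie outside the deleted exons, and Stk3 was not analysed here.

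Of the 52 keratins 10 rose, 1 fell and 41 did not pass in limma's test, where 8.6% of all genes were called higher and 10.2% lower (18.8% in either direction). The median difference of the keratins was 0.04 on the log2 scale, beside −0.02 for all genes. In 11 keratins every knockout value lay above every control value and in 1 every knockout value lay below, where 22.1% of all genes had no overlap in either direction. By class, 4 of 6 simple keratins rose and 1 fell, 2 of 3 basal keratins rose, and 4 of 19 stratified keratins rose. Of the 9 keratins of the inner root sheath and the 14 of hair, 0 passed in limma's test and 0 had an unadjusted p under 0.05.

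**Figure D1:**
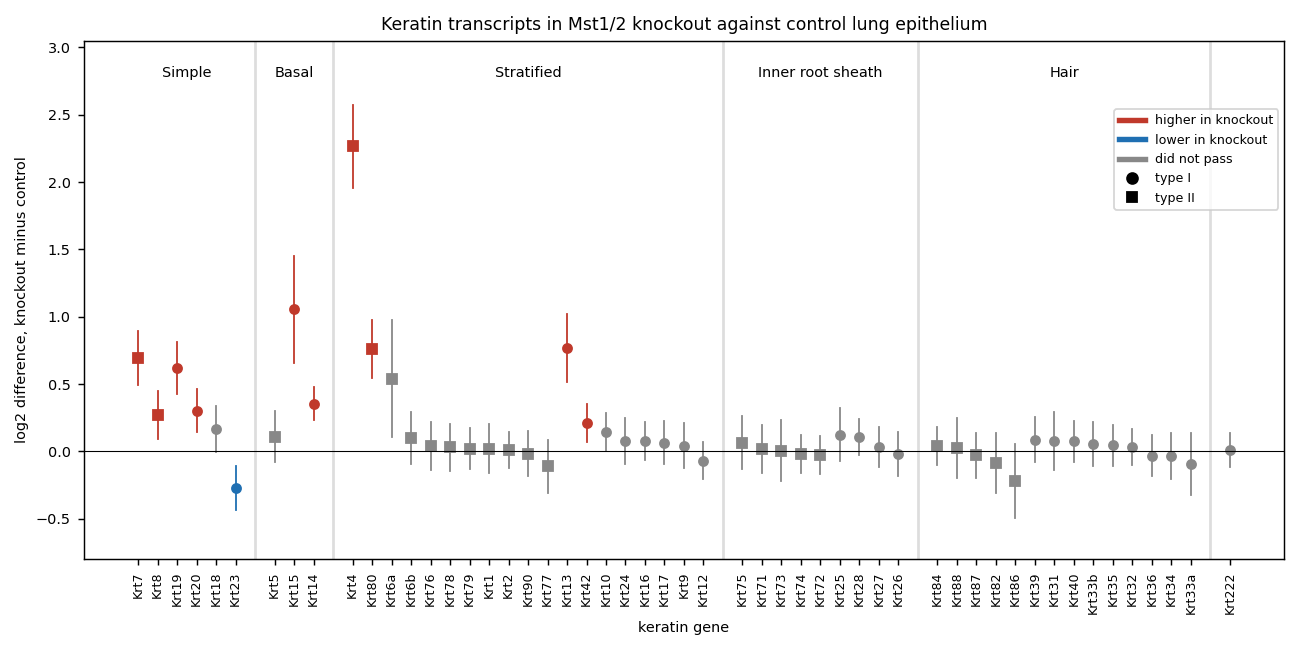
Log2 difference, knockout minus control, of each keratin gene with its 95% confidence interval (vertical axis), grouped by class, with squares for type II and circles for type I genes. Krt4 stands at 2.27, the 9 other risen keratins lie between 0.21 and 1.05, and the keratins of hair and inner root sheath lie between −0.22 and 0.13. The gene at the far right is the keratin-like Krt222.

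The promoters shown are those of the 3 risen keratins whose windows held a Tead or AP-1 motif, chosen for that, and of a hair keratin that did not pass. These motifs were searched because the Tead factors are the route by which Yap reaches its targets and AP-1 is a common companion of theirs. They are RefSeq promoter windows of assembly GRCm38.p6, which run from 250 bases before the start of transcription to 50 after it, 5′ to 3′ on the strand of the gene. Capitals mark the motifs searched on both strands, CATTCC for a Tead site, TGANTCA for an AP-1 site and TATAAA for a TATA box. The windows are Krt13 at chr11:100120528-100120827 (minus strand), 1 of its 2 annotated starts, Krt14 at chr11:100205981-100206280 (minus strand), Krt20 at chr11:99438104-99438403 (minus strand) and Krt31 at chr11:100050502-100050801 (minus strand).
Krt13: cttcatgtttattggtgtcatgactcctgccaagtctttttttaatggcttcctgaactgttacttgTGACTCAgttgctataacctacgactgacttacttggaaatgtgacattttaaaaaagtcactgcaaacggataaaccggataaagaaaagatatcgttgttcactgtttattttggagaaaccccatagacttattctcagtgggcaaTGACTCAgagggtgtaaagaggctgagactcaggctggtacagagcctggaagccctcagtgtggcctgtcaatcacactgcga
Krt14: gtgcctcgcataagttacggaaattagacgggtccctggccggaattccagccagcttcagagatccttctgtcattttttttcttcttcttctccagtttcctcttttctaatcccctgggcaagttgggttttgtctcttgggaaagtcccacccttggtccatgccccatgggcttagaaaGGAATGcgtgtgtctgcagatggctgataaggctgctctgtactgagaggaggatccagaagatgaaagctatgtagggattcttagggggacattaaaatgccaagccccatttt
Krt20: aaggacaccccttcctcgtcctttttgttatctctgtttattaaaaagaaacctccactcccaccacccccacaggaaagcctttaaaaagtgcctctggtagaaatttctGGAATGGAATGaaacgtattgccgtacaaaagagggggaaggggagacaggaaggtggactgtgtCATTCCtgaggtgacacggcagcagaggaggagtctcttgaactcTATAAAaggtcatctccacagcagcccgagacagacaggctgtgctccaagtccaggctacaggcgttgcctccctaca
Krt31: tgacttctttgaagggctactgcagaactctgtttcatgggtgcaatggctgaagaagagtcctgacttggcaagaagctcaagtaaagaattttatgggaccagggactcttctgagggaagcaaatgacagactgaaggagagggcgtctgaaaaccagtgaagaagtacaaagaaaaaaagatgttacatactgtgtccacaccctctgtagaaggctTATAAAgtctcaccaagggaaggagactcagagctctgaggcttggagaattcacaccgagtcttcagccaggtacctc

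The table held 37 windows for 36 of the 52 keratins, 7 of them for 6 of the risen genes, Krt7, Krt8, Krt13, Krt14, Krt20 and Krt42. Krt4 and Krt15, which had the largest rises, and the risen Krt19 and Krt80 had no window, so the motif counts do not cover them. Krt13 had AP-1 motifs beginning 183 and 34 bases before the start shown, and 1 beginning 196 bases before its other start. The windows of Krt7, Krt8 and Krt42, which also rose, held neither motif. Krt14 had 1 Tead motif 66 bases before the start, and Krt20 had Tead motifs 139, 134 and 74 bases before it, of which the first and second overlap by 1 base. In all, 3 of 37 keratin windows held CATTCC, 2 of them among the 7 windows of risen genes and 1 that of Krt78, which did not pass, beside 14.7% of 32851 windows of all genes. TGANTCA was in 2 of 37, both windows of Krt13, beside 7.81%. The letters TATAAA, at any position and on either strand, stood in 13 of the 17 windows of hair and inner root sheath keratins. They stood in 6 of the 20 windows of other keratins, beside 13.6% of all windows. The only matches of Krt72 and Krt84 began 203 and 206 bases before the start, on the opposite strand. That of Krt42 began 19 bases after the start, and those of Krt8 began 3 and 1 bases before it. A match describes letters and not binding.

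Among the simple keratins, Krt7 and Krt19 had the largest differences. Of the other classical simple pair, Krt8 passed narrowly and Krt18 did not pass. Krt7 (probe set 10427052), a type II keratin of ducts and of the lung, read 12.11, 12.13, 12.23 and 12.01 in knockout arrays and 11.52, 11.30, 11.25 and 11.64 in control arrays. The groups did not overlap, and Krt7 rose 1.61-fold (log2 difference 0.69, SE 0.091, adjusted p = 3.65e-04). Krt19 (probe set 10391036), the smallest type I keratin, read 12.38, 12.37, 12.34 and 12.24 in knockout arrays and 11.75, 11.60, 11.56 and 11.95 in control arrays. It rose 1.54-fold without overlap (0.62, SE 0.086, adjusted p = 5.39e-04). Control replicate 4 was the highest control array for Krt7, Krt19, Krt8 and Krt18 alike.

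Krt8 (probe set 10432918), the type II keratin that appears first in the embryo, read 12.54, 12.49, 12.64 and 12.52 in knockout arrays and 12.32, 12.14, 12.16 and 12.47 in control arrays. Its rise was 1.21-fold (0.27, SE 0.079, adjusted p = 0.0367), and the lowest knockout value stood only 0.017 above the highest control value. The call ended in the limma fit when a single array among replicates 1, 2 and 3 of either group was left out (differences 0.23 to 0.29, adjusted p 0.0570 to 0.110), and with each array centred on its median (0.26, adjusted p = 0.0542). Its partner Krt18 (probe set 10427075) did not pass, with 12.31, 12.24, 12.29 and 12.28 in knockout arrays and 12.09, 12.00, 12.01 and 12.35 in control arrays (0.17, SE 0.078, adjusted p = 0.186). The groups overlapped through control replicate 4, and without that array Krt18 passed (0.25, adjusted p = 0.0177).

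Of the remaining simple keratins, both of type I, 1 rose and 1 fell by small amounts. Krt20 (probe set 10390850), a keratin of gut and urothelial surface cells, read 5.78, 5.67, 5.81 and 5.75 in knockout arrays and 5.50, 5.30, 5.60 and 5.40 in control arrays. It rose 1.23-fold without overlap (0.30, SE 0.072, adjusted p = 0.0138). Krt23 (probe set 10390860), a less studied epithelial keratin, read 7.14, 7.03, 7.11 and 6.92 in knockout arrays and 7.18, 7.42, 7.28 and 7.41 in control arrays. It was the only keratin that fell (−0.27, SE 0.075, adjusted p = 0.0281), and its neighbour on the chromosome is Krt20. The call of Krt23 ended in the limma fit when replicate 2, 3 or 4 of the control or replicate 2 or 4 of the knockout was left out, where the difference was −0.29 to −0.23 and the adjusted p 0.0512 to 0.0749.

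**Figure D2:**
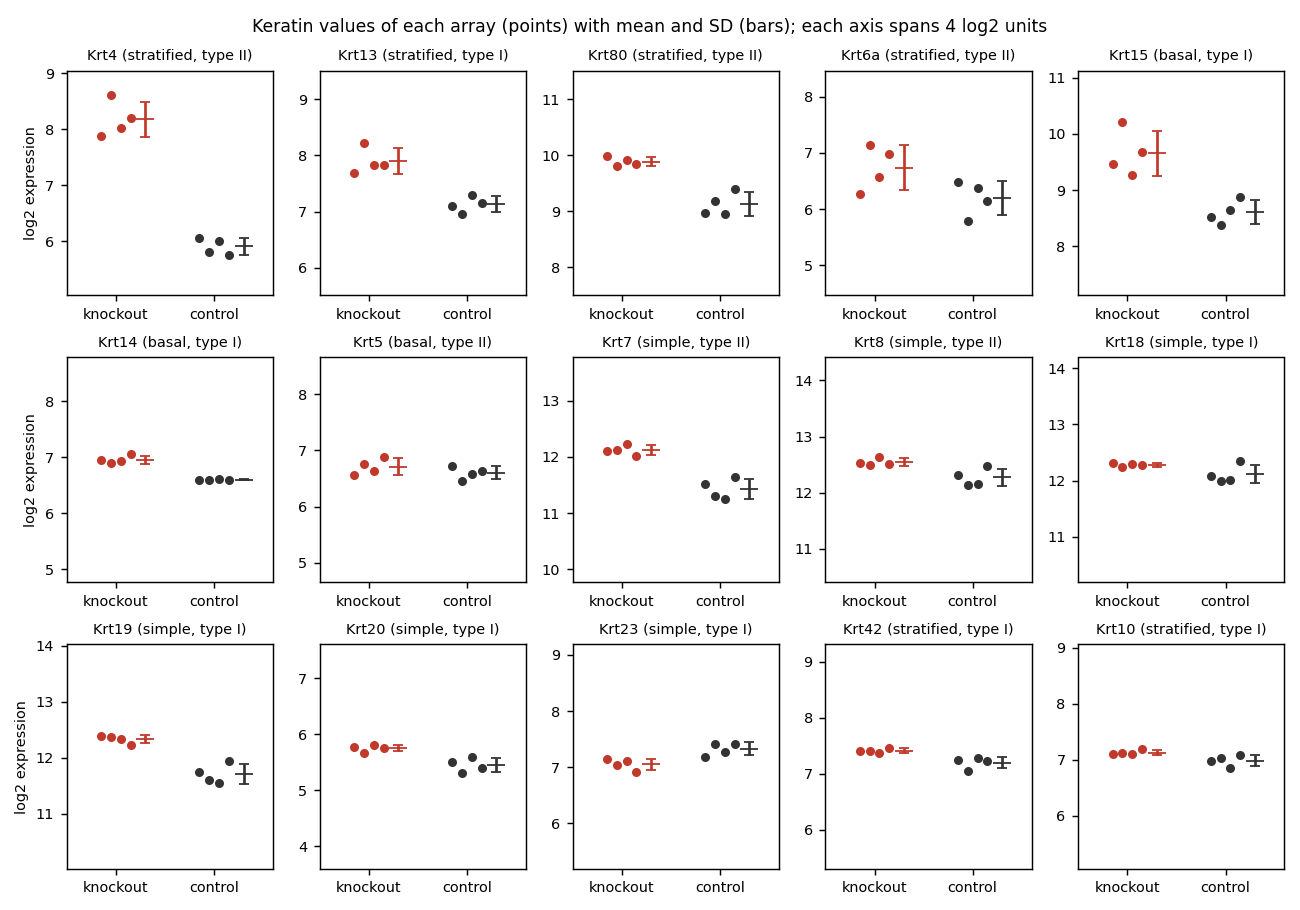
Log2 expression of 15 keratins in each array (points, knockout left of control) with the group mean and SD (bars), every axis spanning the same number of log2 units. The knockout and control points of Krt4 are the farthest apart, at 7.88 to 8.60 and 5.75 to 6.06, and those of Krt5, Krt6a and Krt18 overlap.

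Of the basal keratins, both type I genes rose and the type II gene Krt5 did not pass. Krt15 (probe set 10391025), a type I keratin of basal cells including slowly dividing ones, read 9.47, 10.21, 9.27 and 9.67 in knockout arrays and 8.51, 8.38, 8.64 and 8.88 in control arrays. It rose 2.08-fold without overlap (1.05, SE 0.18, adjusted p = 0.00192), with the widest spread among the knockout arrays of any risen keratin (SD 0.40). Krt14 (probe set 10391052), the type I keratin of the epidermal basal layer, read 6.95, 6.89, 6.93 and 7.05 in knockout arrays and 6.60, 6.59, 6.62 and 6.60 in control arrays. Its rise was small, 1.28-fold (0.35, SE 0.055, adjusted p = 0.00106), and the control arrays had an SD of 0.010 around their mean of 6.60.

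Krt5 (probe set 10432785), the only type II basal keratin and the partner of both, read 6.57, 6.76, 6.63 and 6.89 in knockout arrays and 6.73, 6.46, 6.58 and 6.64 in control arrays. The groups overlapped and Krt5 did not pass (0.11, SE 0.085, adjusted p = 0.456, 95% interval of the difference −0.08 to 0.30). Trp63, the transcription factor that defines basal cells, read 6.72, 6.67, 6.61 and 6.66 in knockout arrays and 6.66, 6.60, 6.71 and 6.63 in control arrays, and did not pass (0.01, SE 0.054, adjusted p = 0.903). In a basal cell list of 12 measured genes, with no keratin in it, 6 were higher, 1 was lower and 5 missed the threshold (median difference 0.25), beside 8.6% of all genes higher and 10.2% lower. S100a14, a calcium-binding protein (1.18, SE 0.074), Lamb3, a laminin chain of the basement membrane (0.34, SE 0.066), and Cav2, a caveolar protein (0.38, SE 0.084), had the smallest p of that list, and all 3 are also made by other epithelial cells. The member that fell, named after its value was seen, was the integrin Itga6 (−0.35, SE 0.086). Besides Trp63, those that missed were Ngfr (0.01), Col17a1 (−0.05), Aqp3 (−0.02) and Snai2 (0.24), also named after their values were seen. With the mesothelial marker mean described further on as a covariate, 3 of this list rose and 0 fell, beside 2.98% of all genes higher.

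In the stratified class Krt4 (probe set 10432886), the type II keratin of the layers above the basal one in mucosa, read 7.88, 8.60, 8.03 and 8.20 in knockout arrays and 6.06, 5.82, 6.01 and 5.75 in control arrays. The lowest knockout value was 1.82 above the highest control value, and the rise was 4.81-fold (2.27, SE 0.14, adjusted p = 7.76e-06). Its type I partner Krt13 (probe set 10391013) read 7.68, 8.23, 7.84 and 7.84 in knockout arrays and 7.10, 6.96, 7.30 and 7.16 in control arrays. Krt13 also rose without overlap, but by 1.70-fold (0.77, SE 0.11, adjusted p = 8.23e-04). Knockout replicate 2 was the highest knockout array and knockout replicate 1 the lowest for both genes and for Krt6a, and replicate 2 was the highest for Krt15 too.

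Krt80 (probe set 10432682), a type II keratin of many differentiating epithelia, read 9.98, 9.82, 9.91 and 9.84 in knockout arrays and 8.98, 9.18, 8.95 and 9.40 in control arrays. It rose 1.69-fold without overlap (0.76, SE 0.096, adjusted p = 2.88e-04). Krt42 (probe set 10391075), a mouse type I keratin closely related to Krt17, so that its value is uncertain, read 7.40, 7.41, 7.38 and 7.47 in knockout arrays and 7.25, 7.05, 7.28 and 7.24 in control arrays. Its rise of 1.16-fold was the smallest called (0.21, SE 0.064, adjusted p = 0.0424), and the call ended in the limma fit without any 1 of the 8 arrays (adjusted p 0.0511 to 0.0916).

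The other stratified keratins did not pass. Krt6a (probe set 10432780), a type II keratin of wounded and fast dividing epidermis that is nearly identical to Krt6b and so uncertain, read 6.26, 7.13, 6.56 and 6.98 in knockout arrays and 6.48, 5.79, 6.38 and 6.14 in control arrays (0.54, SE 0.20, adjusted p = 0.0857). The groups overlapped through knockout replicate 1, and without that array Krt6a passed (0.70, adjusted p = 0.0220). Its partner Krt16 read 5.72, 5.68, 5.66 and 5.78 in knockout arrays and 5.73, 5.50, 5.67 and 5.62 in control arrays (0.08, SE 0.064, adjusted p = 0.497). Krt16 is a stress keratin of the epidermis like Krt6a, and its groups overlapped.

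The pair of the upper skin layers showed no passing change. Krt1 read 5.50, 5.72, 5.74 and 5.92 in knockout arrays and 5.70, 5.66, 5.78 and 5.67 in control arrays (0.02, SE 0.083, adjusted p = 0.912). Krt10 read 7.10, 7.13, 7.10 and 7.20 in knockout arrays and 6.97, 7.03, 6.85 and 7.10 in control arrays (0.14, SE 0.065, adjusted p = 0.171). The knockout values of Krt10 all lay above the control values, by 0.0018 at the closest. The other 11 stratified keratins had differences between −0.11 (Krt77) and 0.10 (Krt6b).

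Keratins of hair and of the inner root sheath stayed close together. The 14 hair keratins had a median difference of 0.03 and ranged from −0.22 (Krt86) to 0.09 (Krt39), and the 9 inner root sheath keratins had a median of 0.01 and ranged from −0.03 (Krt72) to 0.13 (Krt25). Krt86, a type II hair keratin, read 5.04, 4.86, 5.36 and 5.23 in knockout arrays and 5.56, 5.06, 5.38 and 5.37 in control arrays, with overlap (−0.22, SE 0.12, adjusted p = 0.280). The keratin-like Krt222 differed by 0.01.

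To ask whether partners moved alike, 8 pairs of a type II keratin with a type I partner were compared by the difference of their log2 values within each array, which cancels any scaling of an array. Its absolute size depends on the probe sets, and only its change between groups is read. Whether the 2 probe sets of a pair respond alike to a change of RNA was not tested, so that change is one of signal. The SE and 95% interval of a pair are ordinary ones from the pooled SD of the groups, and not limma's. Krt4 minus Krt13 was 0.20, 0.38, 0.19 and 0.36 in knockout arrays and −1.04, −1.14, −1.29 and −1.41 in control arrays. The signal of Krt4 thus changed by 1.50 more than that of Krt13 (SE 0.097, 95% interval 1.26 to 1.74), without overlap.

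Krt5 minus Krt15 was −2.90, −3.45, −2.64 and −2.78 in knockout arrays and −1.78, −1.92, −2.06 and −2.24 in control arrays, a change of −0.95 (SE 0.20, 95% interval −1.44 to −0.45). Krt5 minus Krt14 was −0.38, −0.13, −0.30 and −0.16 in knockout arrays and 0.13, −0.13, −0.04 and 0.04 in control arrays, a change of −0.24 (SE 0.080, 95% interval −0.44 to −0.05). In both basal pairs the groups did not overlap and the type I gene had the larger difference, although the closest arrays of Krt5 with Krt14 nearly touched at −0.13.

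Both type II partners of Krt19 were set against it. Krt8 minus Krt19 was 0.15, 0.12, 0.30 and 0.28 in knockout arrays and 0.58, 0.55, 0.60 and 0.52 in control arrays, a change of −0.35 without overlap (SE 0.049, 95% interval −0.47 to −0.23). Krt7 minus Krt19 was −0.28, −0.24, −0.11 and −0.23 in knockout arrays and −0.23, −0.30, −0.30 and −0.31 in control arrays, a change of 0.07 with overlap (SE 0.040, 95% interval −0.03 to 0.17). The interval bounds the difference between the changes of Krt7 and Krt19 and does not show that they are equal.

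In the pairs Krt8 with Krt18 (0.10, 95% interval 0.01 to 0.19), Krt1 with Krt10 (−0.12, −0.37 to 0.13) and Krt6a with Krt16 (0.46, −0.08 to 1.01) the groups overlapped. The exact permutation test, two-sided, gave p = 0.0286 for the pairs Krt4 with Krt13, Krt5 with Krt15, Krt5 with Krt14 and Krt8 with Krt19, which is the lowest value open to a design of 4 arrays a group. For the others the exact p was 0.0571 for Krt8 with Krt18, 0.0857 for Krt7 with Krt19, 0.114 for Krt6a with Krt16 and 0.371 for Krt1 with Krt10. Adjusted over the 8 pairs, the 4 smallest exact values became 0.0571, so 0 pairs passed after adjustment by the exact permutation test and 4 had an unadjusted p under 0.05. With only 4 pairs at the lowest open value, no size of change in them could have brought the adjusted value under 0.05. The count of 0 therefore says nothing of how large those changes were.

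**Figure D3:**
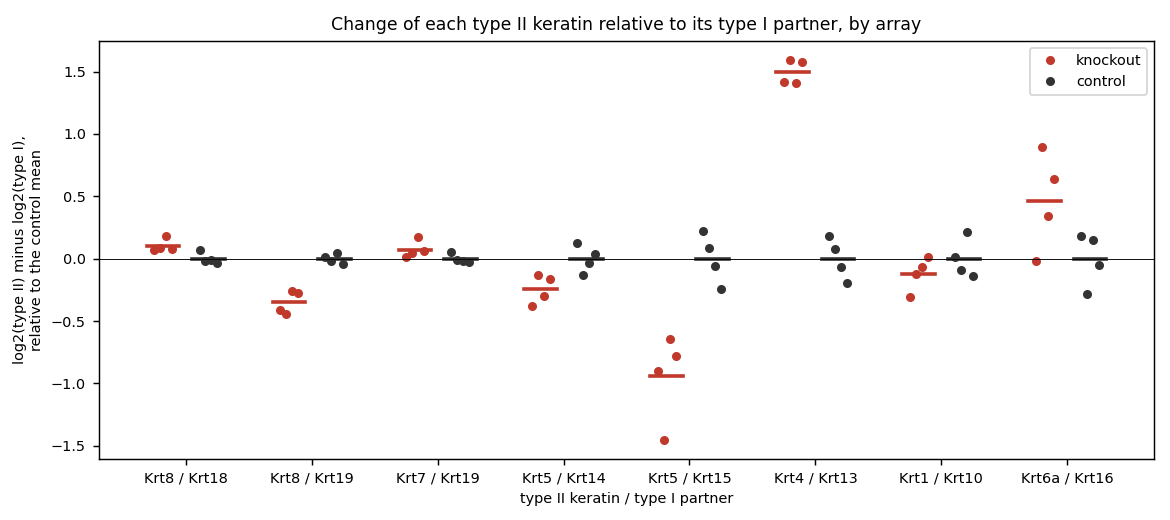
Log2 value of the type II keratin minus that of its type I partner in each array, relative to the control mean of the pair (points, knockout left of control, with lines at the group means). Krt4 with Krt13 lies 1.50 above the control mean and the change of Krt5 with Krt15 is −0.95, and the points of Krt7 with Krt19 overlap.

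Keratin genes lie in a cluster of type I genes on chromosome 11 and a cluster of type II genes, joined by the type I gene Krt18, on chromosome 15. In the RefSeq order, 6 of the 27 measured keratins on chromosome 11 rose and 1 fell, and 4 of 25 on chromosome 15 rose. The shares over all genes were 8.6% higher and 10.2% lower. Krt13, Krt15 and Krt19 follow one another directly, and Krt14 follows after Krt9, which did not pass. Krt80 and Krt7 are direct neighbours at one end of the other cluster. Krt4 lies between Krt76 (0.04) and Krt79 (0.02), neither of which passed.

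**Figure D4:**
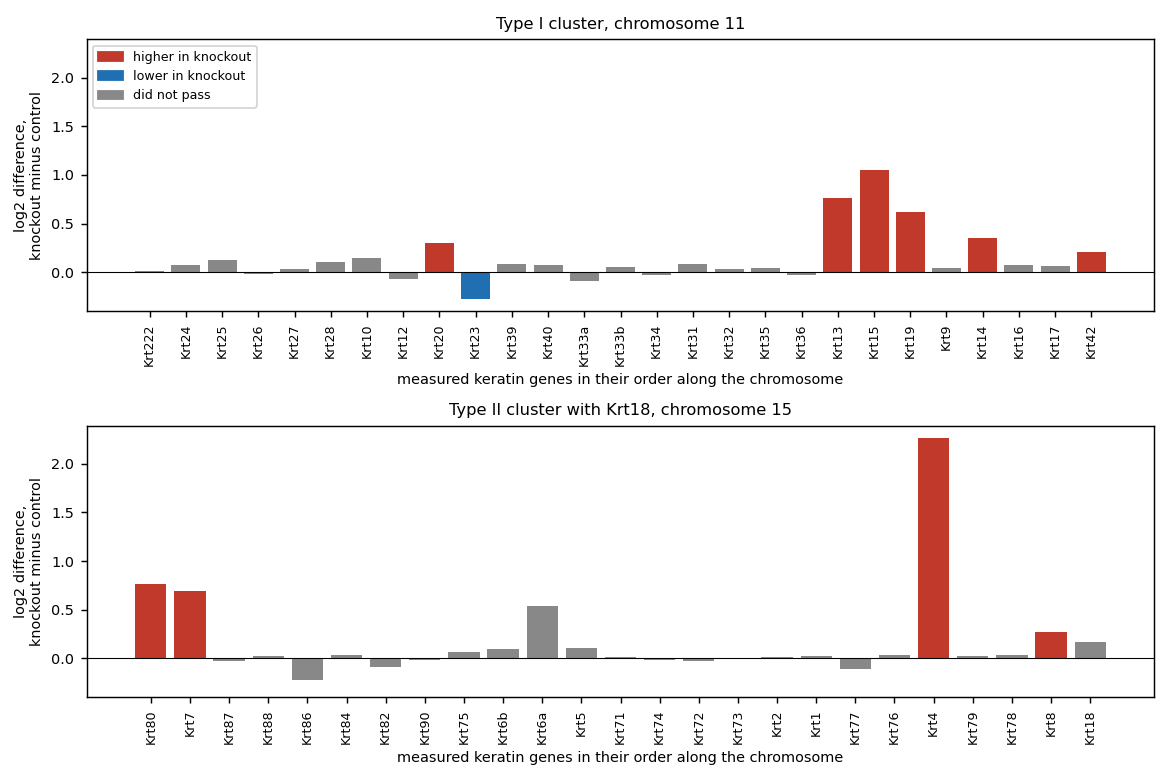
Log2 difference, knockout minus control, of the 52 keratins in their order along chromosome 11 (above) and chromosome 15 (below), coloured by call. Krt13, Krt15 and Krt19 stand side by side at 0.77, 1.05 and 0.62, and Krt4 stands alone at 2.27 between neighbours near 0.

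Most genes of proteins that anchor keratin filaments were higher in the knockout arrays. Among 14 linkers and keratin-associated genes, 9 were higher, 1 was lower and 4 missed the threshold (median difference 0.28), beside 8.6% of all genes higher and 10.2% lower. With marker means of other cell types as covariates, described further on, 5 rose (mesenchymal, beside 4.44% of all genes) or 3 rose (mesothelial, beside 2.98%). Evpl, envoplakin, read 8.94, 8.88, 8.90 and 8.85 in knockout arrays and 8.39, 8.20, 8.43 and 8.43 in control arrays, and rose 1.45-fold (0.53, SE 0.065). Plec, the plectin that ties keratin filaments to hemidesmosomes, rose 1.43-fold (0.52, SE 0.063), and Ppl, periplakin, rose 1.35-fold (0.43, SE 0.075). Dsp, the desmoplakin that attaches keratins to desmosomes, rose 1.29-fold (0.36, SE 0.072, adjusted p = 0.00503). The member that fell, named after its value was seen, was Krtcap2, a subunit of the oligosaccharyltransferase despite its keratinocyte name (−0.29, SE 0.075). The call of Krtcap2 ended when control replicate 2 or 3 or knockout replicate 3 was left out. The only other negative difference, also named after it was seen, was that of the linker Dst, which did not pass (−0.16, SE 0.063).

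Genes of the cornified envelope, the crosslinked protein shell of surface keratinocytes, did not move as one. Here 4 of 13 measured genes were higher, 1 was lower and 8 missed the threshold (median difference 0.12), beside 8.6% of all genes higher and 10.2% lower. With either marker mean as a covariate 1 was higher, beside 4.44% (mesenchymal) or 2.98% (mesothelial) of all genes. Scel, sciellin, read 10.41, 10.50, 10.17 and 10.35 in knockout arrays and 8.36, 8.39, 7.94 and 8.76 in control arrays, and rose 3.99-fold (2.00, SE 0.15). Cnfn, cornifelin, rose 1.89-fold and was highest in knockout replicate 2, at 9.08, and lowest among the knockout arrays in replicate 1, at 7.92. Ivl, involucrin, fell, with 6.38, 6.19, 6.07 and 6.39 in knockout arrays and 6.93, 6.78, 7.17 and 6.88 in control arrays (−0.68, SE 0.098).

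In the list of transcription factors of stratified epithelium 1 of 17 was higher, 3 were lower and 13 missed the threshold (median difference 0.01), beside 8.6% of all genes higher and 10.2% lower, so its share of calls is near that of all genes. Grhl3, a grainyhead factor of the skin barrier, rose 1.74-fold (0.80, SE 0.066), while the ETS factors Elf5 (−1.70, SE 0.14) and Elf3 (−0.72, SE 0.094) fell. Klf4 also fell and was named after its value was seen (−0.29, SE 0.063). Among 14 other intermediate filament genes 5 were higher, 0 lower and 9 missed the threshold in limma's test (median difference 0.09), beside 8.6% of all genes higher, and 0 were lower at an unadjusted p under 0.05. The 5 became 3 when control replicate 1, control replicate 3 or knockout replicate 3 was left out. In those fits 1240 to 1358 of all 19938 genes were called higher. The 5 became 2 with the mesenchymal mean as a covariate (beside 4.44% of all genes) and 1 with the mesothelial mean (beside 2.98%). Lmnb1 and Lmna, lamins of the nucleus, rose by 0.61 (SE 0.073) and 0.37 (SE 0.067). Vim, the filament of mesenchymal cells, rose 1.27-fold, with 12.10, 12.11, 12.17 and 12.06 in knockout arrays and 11.71, 11.82, 11.67 and 11.86 in control arrays.

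**Figure D5:**
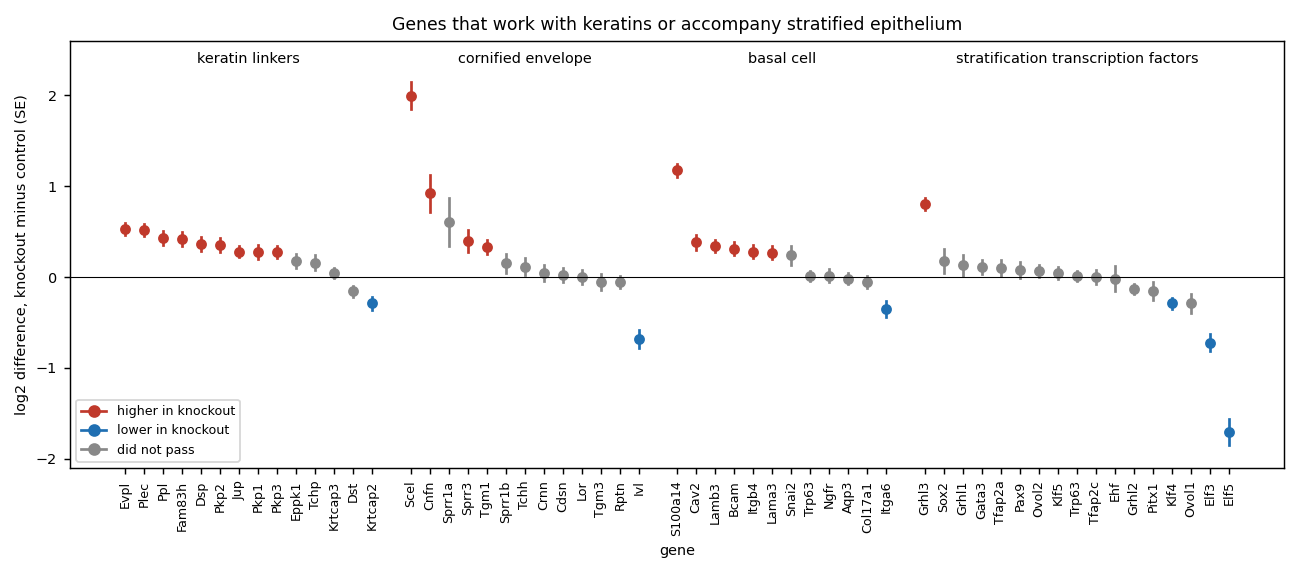
Log2 difference, knockout minus control, with SE of the genes in 4 lists, coloured by call. Of the keratin linkers 9 of 14 rose, whereas Scel at 2.00 and Ivl at −0.68 mark the ends of the cornified envelope list and Elf5 at −1.70 the low end of the transcription factors.

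Some markers of other cell types also passed the test, where 8.6% of all genes were called higher and 10.2% lower. In the fits that left out 1 array, 1240 to 1820 of all 19938 genes were called higher and 1526 to 2158 lower. Mesothelial cells, which cover the lung, make simple keratins, and the mean of 8 mesothelial markers was 8.41 to 8.85 in knockout arrays and 7.91 to 8.49 in control arrays. All 8 of these markers had a positive difference. Msln (0.75, SE 0.065) and Upk1b (1.43, SE 0.17) rose and 6 did not pass. Those 6 were named after their values were seen. They were Gpm6a (0.47, SE 0.19), Lrrn4 (0.25, SE 0.23), Upk3b (0.25, SE 0.20) and Wt1 (0.17, SE 0.12). The last were Muc16 (0.10, SE 0.14) and Rspo1 (0.04, SE 0.090). The mean of 14 mesenchymal markers was 8.15 to 8.67 in knockout and 7.89 to 8.34 in control arrays. Of them Postn (1.04), Pdgfrb (0.57) and Col1a2 (0.49) rose, 3 markers in all, a count that was 7 without knockout replicate 1, 5 without control replicate 4 and 1 without control replicate 1, 2 or 3 or knockout replicate 3 or 4. The mean of 8 endothelial markers was 9.64 to 9.69 in knockout and 9.23 to 9.60 in control arrays, and Pecam1, Tek, Tie1 and Esam, the last named after its value was seen, rose by 0.41 to 0.47. The mean of 8 leukocyte markers was 9.63 to 9.95 in knockout and 9.21 to 10.18 in control arrays, where Itgam rose (0.56) and Lyz2, also made by alveolar type II cells, fell (−0.93). The number of risen leukocyte markers was 2 without control replicate 2 and 0 without control replicate 1, 3 or 4 or knockout replicate 2, 3 or 4. The mean of 8 lung epithelial markers was 10.90 to 11.04 in knockout and 10.96 to 11.03 in control arrays, where Hopx rose (0.59) and Foxj1 fell (−0.30), and Epcam did not pass (0.01, SE 0.097). The number of fallen lung epithelial markers was 0 without control replicate 2, 3 or 4 or knockout replicate 1, 2 or 3.

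The mesothelial mean averaged 8.59 in knockout and 8.15 in control arrays and includes Msln and Upk1b, which rose. The mesenchymal mean averaged 8.41 and 8.06. Each covariate thus shares part of its variation with the groups, and the fit cannot divide that part between them. With the mesothelial mean as a covariate in the limma fit 5 keratins rose, where 2.98% of all genes were called higher. They were Krt4 (2.39, SE 0.21), Krt80 (0.57, SE 0.12), Krt7 (0.64, SE 0.14), Krt19 (0.55, SE 0.13) and Krt13 (0.80, SE 0.18). Krt15 (0.94, SE 0.27, adjusted p = 0.0730), Krt14 (0.32, SE 0.086, adjusted p = 0.0572) and Krt20 (0.39, SE 0.11, adjusted p = 0.0570) no longer passed, nor did Krt8 (0.19, SE 0.12) and Krt42 (0.22, SE 0.10), and the difference of Krt42 was no smaller than the 0.21 without the covariate. With the mesenchymal mean as a covariate 7 keratins rose, where 4.44% of all genes were called higher, and Krt20 no longer passed (0.29, adjusted p = 0.103), nor did Krt8 (0.18, SE 0.098) and Krt42 (0.18, SE 0.086). Among the other genes named, the calls of Ppl (0.38, SE 0.11), Dsp (0.40, SE 0.11), Klf4 (−0.32, SE 0.099) and Vim (0.27, SE 0.093) ended with the mesothelial mean. Those of Cnfn (0.97, SE 0.31), Cav2 (0.41, SE 0.13) and Lmna (0.26, SE 0.093) ended with it too, and with the mesenchymal mean (0.87, 0.40 and 0.26). Of these 7 differences, those of Dsp, Klf4, Cnfn and Cav2 were larger with the mesothelial mean than without a covariate, and the SE of each was larger. The part of other cell types in the remaining differences was not tested.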

How the data were processed

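The authors deposited log2 expression values for 35556 probe sets on 8 single-colour arrays labelled with biotin, per the labels' protocols. That the scale is log2 was read from the values, and the sources used here name no normalization method or software. At every rank an array differed from the mean of the 8 arrays by at most 0.175, so no further scaling was applied. GEO's platform annotation gives 1 symbol to 21789 probe sets, several to 1621 and none to 12146. Of those with 1 symbol, 21698 matched the RefSeq table of assembly GRCm38.p6, and all 52 keratins did.

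A gene took its probe set of highest mean, giving 19938 genes. All were tested for knockout minus control in limma 3.58.1 (lmFit, eBayes; R 4.3.3), two-sided, with no covariate and Benjamini-Hochberg adjustment at 0.05. The fit was tested on simulated data. For 8 pairs of type II and type I keratins the difference of the log2 values in each array was compared between groups by an exact permutation test over 70 assignments, adjusted over the 8 pairs.

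The keratins, the gene lists, the naming rule, the tests and the alternatives were chosen with earlier results of these data known. All keratins could be named. Those that passed and those of a pair have their array values, and up to 3 members of each other list with the smallest p are named, with Trp63, Epcam, Vim and Dsp in any case. List members that no probe set names alone were not analysed here. The alternatives were a replicate block, median centring, quantile normalization, a filter on dim genes, the mean of a gene's probe sets, eBayes with trend and robust, 3 covariates, 2 knockout arrays left out together and each array left out, and they were run on the other gene lists after the data were seen. The arrays hold no counts, so their number limits the precision.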

Additional observations from a re-analysis of the deposited data

Results flagged for a closer look

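Among 104 groups of 4 arrays for the 52 keratins, 4 held an array whose gap to its nearest neighbour passed Dixon's limit for a group of 4, and chance marks about 1 in 20 such groups. Krt42 read 7.05 in control replicate 2, against 7.24 to 7.28 in the other control arrays, and its call rests on small differences. Krt12 read 6.97 in knockout replicate 4, against 6.84 to 6.86 in the other knockout arrays. Krt33a read 5.94 in knockout replicate 3, against 6.36 to 6.43 in the others. Krt2 read 5.55 in control replicate 2, against 5.67 to 5.68 in the others. Among the pairs, Krt8 minus Krt18 was 0.35 in knockout replicate 3, against 0.23 to 0.25 in the other knockout arrays. Krt7 minus Krt19 was −0.23 in control replicate 1, against −0.31 to −0.30 in the other control arrays.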

How the results depend on the processing

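Over 18 alternatives no keratin that passed turned its sign, and 151 of 192 values kept their call. The mean of a gene's probe sets is among these alternatives. It could not move the difference of a keratin, since each keratin has 1 probe set, so its kept calls carry no support. Krt4, Krt80, Krt7, Krt19 and Krt13 passed under each alternative that tested them. The number of risen keratins was 10, where 1715 of 19938 genes were called higher. It was 5 of 8 tested when only genes above the median level were kept, where 1483 of 9969 genes were called higher. That filter removes Krt4, Krt13 and Krt14 among others. With the mesothelial marker mean as a covariate the number was 5, beside 594 of 19938 genes. The number of fallen keratins in limma's test was 1. It was 0 with the replicate block, with the mesenchymal, mesothelial or Xist covariate, with genes above the median level only and without knockout replicates 1 and 4 together. In these fits 1 or 2 keratins were lower at an unadjusted p under 0.05, except among genes above the median level, where 0 were and Krt23 was not tested. Leaving out 1 array at a time gave 8 to 10 risen and 0 to 1 fallen keratins and 3 to 4 pairs with an exact p under 0.05. In those fits 1240 to 1820 of 19938 genes were called higher and 1526 to 2158 lower. Xist read 10.31, 12.36, 12.43 and 6.33 in knockout arrays and 12.30, 5.85, 12.32 and 5.90 in control arrays. Knockout replicate 1 thus lay between the high and the low arrays, and why was not tested. With Xist as a covariate 8 keratins rose, beside 1584 of 19938 genes. Without knockout replicates 1 and 4 together 7 rose, beside 1302 of 19938 genes. The deviations of arrays with the same number had correlations of 0.06, 0.10, −0.08 and 0.04, against −0.34 to 0.36 for arrays with unlike numbers. These values gave no sign that the numbers pair the arrays, and whether arrays share a litter or batch was not tested. With the replicate block 8 keratins rose, beside 1595 of 19938 genes. The calls of Krt8 (0.27, adjusted p = 0.0557), Krt42 (0.21, adjusted p = 0.0755) and Krt23 (−0.27, adjusted p = 0.0683) ended in that limma fit. Where no fewer genes or samples explain a lost call, the cause was not tested.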
